A study of Mus musculus with 6 samples.

Results

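The complement system was examined as 31 genes, fixed by symbol, among the 27546 genes of the deposited table, and each of the 31 was found there. They were the C1 complex of the classical pathway (5 genes), the recognition molecules and proteases of the lectin pathway (6), C3 with the parts of its classical convertase (4), the alternative pathway (3), the terminal pathway (3), the receptors for complement fragments (4), and the regulators (6). The distal colon was sequenced from 3 Gm31629-/- mice and 3 WT littermates, 1 library per mouse, all C57BL/6 and 8 weeks old. Mice of both genotypes received 3% DSS (dextran sulfate sodium, an agent that damages the lining of the colon) to drink for 7 days and were killed on day 8. No untreated mice were analysed here, and the comparison is thus of genotypes in injured tissue. Gm31629 is a long noncoding RNA, and the knockout is of the whole animal, not of a cell type. The study's methods say that total RNA was pooled from the mice of a group, whereas the table holds a column per mouse, and the columns were treated here as separate mice.

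Complement is a cascade of plasma and cell surface proteins that marks microbes and damaged cells. The classical pathway starts when C1q binds antibody or other targets and C1r and C1s become active, the lectin pathway starts with sugar-binding proteins and MASP proteases, and the alternative pathway amplifies deposited C3 with factor B, factor D, and properdin. All 3 routes cleave C3, after which the small fragments call in leukocytes through their receptors and the terminal components can form a pore, while regulators such as CD55 and CD59 protect host cells. The liver makes most of the circulating proteins, but macrophages, fibroblasts, adipocytes, and epithelium of the gut also transcribe some of these genes.

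Values are FPKM, fragments normalised by gene length and library size, so levels can be compared between genes. By the size of 1 fragment the libraries held 18003700 to 18793900 fragments. In Gm31629-/- mouse 1, Xist was at 0.0061 FPKM and 4 Y-linked genes were present. The other 5 libraries held Xist and none of these 4, although the methods describe male mice, so counts are also given without that mouse. Gm31629 itself was not analysed here, so the genotype labels were not checked by its level. Genes were tested with limma on log2(FPKM + 1) over the 14657 genes with a mean of at least 0.5 FPKM, and called at an adjusted p under 0.05 with a log2 fold change above 1 or below −1. For low genes this scale shrinks the fold change. Across the tested genes the median log2 fold change was 0.15, which became −0.06 when libraries were rescaled by their median ratio.

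Of the 31 complement genes 15 rose in Gm31629-/- mice, among them the C1q chains, C3, C4b, and Cfd, whereas Cr1l, abundant in WT mice, did not pass the test. The summed FPKM of the 31 genes was 802, 1630 and 637 in Gm31629-/- mice 1 to 3 and 66.1, 70.8 and 95.4 in WT mice 1 to 3, a ratio of means of 13.2. Each sample was whole distal colon, in which more cells of a type and more RNA per cell cannot be told apart. Of the 31 genes, 21 passed the filter on low values, 15 were called higher, and 0 were called lower, where 18.4% of all tested genes were called higher and 4.64% lower. By the adjusted p alone 16 were higher and 0 lower, where 28.9% of all tested genes were higher and 14.6% lower. At an unadjusted p under 0.05, limma gave 16 higher and 0 lower, and voom on recovered fragments called 16 higher and 0 lower. With Gm31629-/- mouse 1 left out, 16 were called higher, C6 being the addition. For the unadjusted p, for voom, and without mouse 1, the share of all tested genes is not given here. Those counts thus cannot be weighed against such a share. The 6 genes above the filter that were not called were Fcna, C2, Cfb, C6, C8g, and Cr1l. Colec12, C6, C7, C3ar1, and Cd59a passed the filter only because their Gm31629-/- values were high, with WT means under 0.5 FPKM. Being tested thus already went with a difference for these 5. Among the complement genes with a WT mean of at least 0.5 FPKM, 11 were called higher. Each Gm31629-/- mouse was above each WT mouse for 17 of the 21 tested genes, where this was so for 36.3% of all tested genes. With 6 genes under the filter the count was 23 of the 31, and no share over all genes under the filter is given for those 6.

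**Figure D1:**
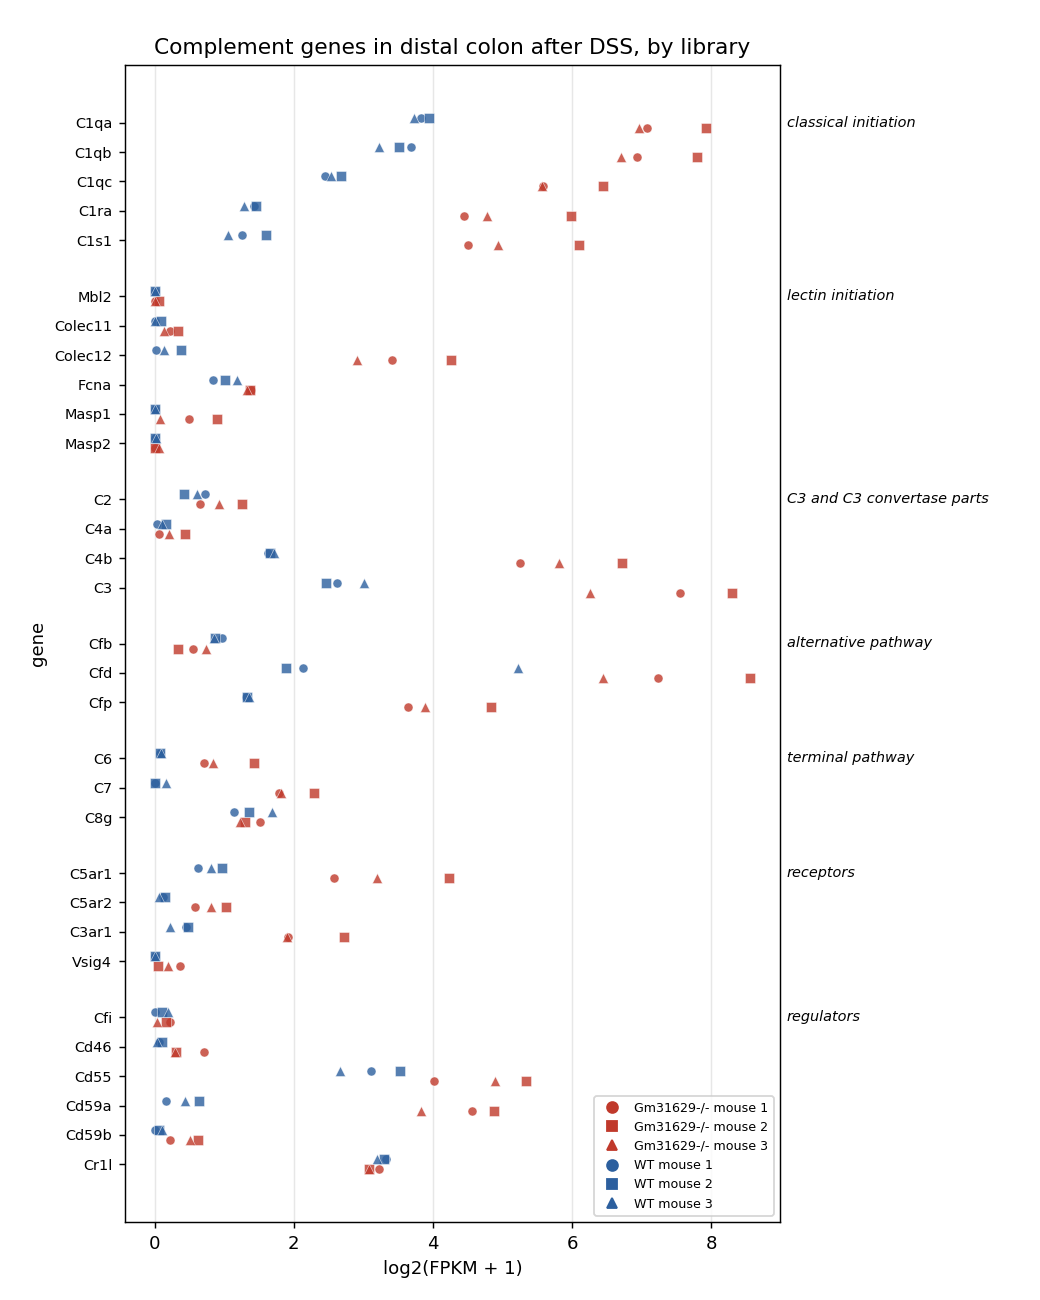
Level of each of the 31 complement genes in each library, as log2(FPKM + 1) on the horizontal axis, with genes grouped by role. Red symbols are Gm31629-/- mice and blue symbols WT mice (1 symbol shape per mouse). Cfd, C3, C1qa, C1qb, and C4b reach the highest levels, and Gm31629-/- mouse 2 is the rightmost point for each of the 15 genes called higher.

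All 5 genes of the C1 complex rose. C1qa, C1qb, and C1qc encode the 3 chains of C1q, the recognition unit of the classical pathway. C1qa (chr4:136895917-136898803, minus strand, GRCm38) had 134, 242, and 124 FPKM in Gm31629-/- mice 1 to 3 and 13.2, 14.4, and 12.3 FPKM in WT mice. C1qb had 121, 219.7, and 103 FPKM against 11.9, 10.4, and 8.31 FPKM. C1qc had 47.0, 86.3, and 46.3 FPKM against 4.45, 5.41, and 4.82 FPKM. For each chain the lowest Gm31629-/- mouse lay far above the highest WT mouse, and mouse 2 was highest. Their log2 fold changes were 3.49 ± 0.26, 3.67 ± 0.29, and 3.31 ± 0.25 (SE), with adjusted p of 0.000265, 0.000314, and 0.000281.

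C1ra and C1s1 encode the serine proteases that C1q activates. In Gm31629-/- mice 1 to 3, C1ra had 20.9, 62.4, and 26.5 FPKM, and in WT mice it had 1.69, 1.73, and 1.43 FPKM. C1s1 had 21.7, 67.2, and 29.6 FPKM against 1.38, 2.02, and 1.07 FPKM. The groups were again apart, with log2 fold changes of 3.69 ± 0.37 (SE) for C1ra and 3.88 ± 0.39 (SE) for C1s1 and adjusted p of 0.000603 and 0.000614. Of the exon bases of C1s1, 18.4% also lie in an antisense gene, and whether counting used strand is not given in the sources used here. The near copies C1rb and C1s2 had at most 4 and 6 fragments in any library, and reads shared with them could have been left out or split.

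The 3 C1q chains kept similar proportions to each other, as did the 2 proteases. By ratio of means the proteases differed more than the chains. The ratios between genes given here were chosen after the values were seen and were given no test. The ratio of C1qc to C1qa FPKM was 0.351, 0.356, and 0.374 in Gm31629-/- mice and 0.338, 0.375, and 0.393 in WT mice. For C1qb to C1qa the ratio was 0.900, 0.907, and 0.834 against 0.903, 0.722, and 0.677. That of C1s1 to C1ra was 1.04, 1.08, and 1.12 against 0.820, 1.17, and 0.750, where the WT values rest on 63 to 114 fragments per gene. The ratio of C1ra to C1qa was 0.156, 0.257, and 0.214 in Gm31629-/- mice and 0.128, 0.120, and 0.116 in WT mice, and that of C1s1 to C1qa was 0.162, 0.277, and 0.239 against 0.105, 0.140, and 0.0872. By ratio of means the C1q chains were 12.2-fold to 14.5-fold higher, C1ra was 22.6-fold higher, and C1s1 was 26.5-fold higher. On log2(FPKM + 1), however, the fold change of C1ra (3.69) was close to that of C1qb (3.67). C1qa was the only chain set against the proteases here. All 3 C1q genes lie within 18.7 kb of chromosome 4 on the minus strand (GRCm38), and C1ra (chr6:124512405-124523443, plus strand) and C1s1 (chr6:124530345-124542359, minus strand) are adjacent and converge.

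Promoters are shown for 4 C1 genes because these genes differed together and lie in 2 clusters. Each line holds the 250 bases before the RefSeq start of the gene (GRCm38.p6), 5′ to 3′ on the strand of the gene, and capitals mark matches, on either strand, to 5 motifs: GAGGAAG for ETS factors such as PU.1, TTCNNNGAA for STAT factors, GAAA, any 2 bases, and GAAA for IRF factors, GGGA, any 3 bases, and TCC for NF-κB, and TTGCNNAA for C/EBP. The windows are chr4:136886201-136886450, minus strand; chr4:136892915-136893164, minus strand; chr6:124512371-124512620, plus strand; chr6:124542360-124542609, minus strand.
C1qb: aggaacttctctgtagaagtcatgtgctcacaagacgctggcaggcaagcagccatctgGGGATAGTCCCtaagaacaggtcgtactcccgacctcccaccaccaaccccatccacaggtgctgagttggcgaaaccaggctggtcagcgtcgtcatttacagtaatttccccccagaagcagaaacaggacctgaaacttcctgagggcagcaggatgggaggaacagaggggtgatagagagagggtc
C1qc: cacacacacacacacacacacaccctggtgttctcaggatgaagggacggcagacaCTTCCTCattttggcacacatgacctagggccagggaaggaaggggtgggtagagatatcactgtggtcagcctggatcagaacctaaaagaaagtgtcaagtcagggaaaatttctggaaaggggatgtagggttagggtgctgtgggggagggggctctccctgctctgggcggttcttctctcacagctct
C1ra: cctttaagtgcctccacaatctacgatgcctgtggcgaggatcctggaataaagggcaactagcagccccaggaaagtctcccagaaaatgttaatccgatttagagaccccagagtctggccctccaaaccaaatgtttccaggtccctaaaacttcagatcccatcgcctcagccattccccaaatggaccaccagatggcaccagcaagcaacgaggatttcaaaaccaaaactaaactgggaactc
C1s1: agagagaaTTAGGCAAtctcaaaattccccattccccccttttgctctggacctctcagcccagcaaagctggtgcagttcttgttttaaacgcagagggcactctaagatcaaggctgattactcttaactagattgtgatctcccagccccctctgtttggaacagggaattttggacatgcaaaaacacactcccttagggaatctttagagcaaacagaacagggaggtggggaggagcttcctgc

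In these windows C1qb held the NF-κB letters, read from both strands of overlapping bases, C1qc the ETS letters, C1s1 the C/EBP letters, and C1ra none of the 5. By the GENCODE gene bounds C1ra starts at 124512405 and C1qc at 136893065, inside their windows. Part of each of these windows thus lies within the gene by that annotation. RefSeq windows were matched for 23 of the 31 genes, in 26 windows. The ETS letters were in 3 of the 26 windows (11.5%, against 10.6% of all 32851 windows), the STAT letters in 3 (11.5% against 7.02%), the IRF letters in 2 (7.69% against 2.98%), the NF-κB letters in 1 (3.85% against 3.86%), and the C/EBP letters in 3 (11.5% against 9.56%). These are matches of letters, not binding sites.

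C3, on which the 3 routes converge, had a log2 fold change of 4.68, the highest of the 21 tested genes on log2(FPKM + 1). By ratio of means C3 was 34.6-fold higher, behind Colec12 at 82.7-fold and Cd59a at 62.7-fold among the genes with a ratio. With a pseudocount of 0.1 or with voom, Colec12 and Cd59a were also above C3. C7, at 0 in WT mice 1 and 2, was given no ratio. With voom C7 was above C3 too, with a log2 fold change of 6.92 against 4.91. C3 lies at chr17:57203970-57228136 (minus strand, GRCm38). Its FPKM was 186, 314, and 75.6 in Gm31629-/- mice 1 to 3 and 5.14, 4.51, and 7.01 in WT mice. Mouse 3 was the lowest of its group and still stood more than 10-fold above each WT mouse. The standard error of its log2 fold change was 0.47 and the adjusted p 0.000615. C3 made up 18.1% ± 5.76 (SD, n = 3) of the FPKM of the 31 genes in Gm31629-/- mice against 7.17% ± 0.714 (SD, n = 3) in WT mice. C4b, which encodes the C4 protein of the classical and lectin convertase, had 37.2, 104, and 55.1 FPKM against 2.098, 2.16, and 2.29 FPKM (log2 fold change 4.26 ± 0.34 SE, adjusted p = 0.000315). The WT mice were nearly alike for C4b, and the groups were far apart.

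The other genes of the complement cluster on chromosome 17 did not follow C4b. C4a, a near-identical copy of C4b, was under the filter with 5, 41, and 17 fragments in Gm31629-/- mice and 3, 14, and 9 in WT mice, and reads of the 2 copies could be shared or left out. C2, the protease of the same convertase, had 0.575, 1.40, and 0.900 FPKM against 0.656, 0.344, and 0.522 FPKM, with overlap between groups (log2 fold change 0.36 ± 0.20 SE, adjusted p = 0.178). Cfb, which encodes factor B, the alternative pathway counterpart of C2, had 0.462, 0.269, and 0.674 FPKM against 0.957, 0.826, and 0.810 FPKM. Each Gm31629-/- mouse was below each WT mouse for Cfb, but the difference did not pass (log2 fold change −0.35 ± 0.16 SE, adjusted p = 0.116). These levels are uncertain, because 79.5% of the exon bases of Cfb and 42.8% of those of C2 also belong to the overlapping gene Gm20547 on the same strand, and how reads of overlapping genes were counted is not given in the sources used here.

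The promoter of C3 is shown because the 3 routes meet at this gene, with the window chr17:57228137-57228386, minus strand; capitals mark the C/EBP letters.
C3: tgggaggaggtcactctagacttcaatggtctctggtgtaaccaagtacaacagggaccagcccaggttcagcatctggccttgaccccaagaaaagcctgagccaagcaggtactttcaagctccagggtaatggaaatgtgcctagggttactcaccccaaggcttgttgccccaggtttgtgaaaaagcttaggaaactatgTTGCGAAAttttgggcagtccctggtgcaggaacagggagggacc

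In the alternative pathway, Cfd and Cfp rose. Cfd encodes factor D (adipsin), the protease that activates factor B, and is known for its high expression in fat cells. It had 149.8, 376, and 86.2 FPKM in Gm31629-/- mice 1 to 3 and 3.40, 2.71, and 36.4 FPKM in WT mice. WT mouse 3 stood apart from the other 2 WT mice, and the groups still did not overlap. The log2 fold change was 4.33 ± 0.93 (SE), the largest error of the 21 tested genes, with an adjusted p of 0.00959, and it was 5.40 without WT mouse 3. Adipocyte markers were higher too, with a summed FPKM of 70.9, 247, and 87.0 in Gm31629-/- mice 1 to 3. The sum was 11.6 and 18.8 in WT mice 1 and 2 and 29.1 in WT mouse 3, and 5 of the 8 listed markers were called higher. Their part in the result was not tested. Adipoq, the adiponectin gene of fat cells, had 4.01, 38.3, and 12.8 FPKM in Gm31629-/- mice 1 to 3. In WT mice it had 0.431, 0.643, and 3.16 FPKM, with mouse 3 again highest. Mouse 1 was the lowest Gm31629-/- mouse for Adipoq and for the summed markers, whereas mouse 3 was lowest for Cfd. Cfp, which encodes properdin, the stabiliser of the alternative convertase, had 11.5, 27.5, and 13.8 FPKM against 1.49, 1.504, and 1.56 FPKM (log2 fold change 2.79 ± 0.30 SE, adjusted p = 0.000782).

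The lectin pathway was mostly at or near the limit of detection. Mbl2, the mannose-binding lectin made by liver, had 1 fragment in 1 of the 6 libraries, and a count of 0 allows up to 3 fragments in a library. Masp2 had 3 fragments in Gm31629-/- mouse 3, 1 in WT mouse 3, and 0 in the others. Of the exon bases of Masp2, 54.9% also lie in a listed gene on the opposite strand, and reads there could have been left out. Masp1, the other protease of this route, had 75, 157, and 11 fragments in Gm31629-/- mice and 0 in each WT mouse, at least 27.0-fold higher against a floor of 3 fragments per WT library, or at least 14.3-fold without Gm31629-/- mouse 2. Colec11, a soluble collectin, had 5, 8, and 3 fragments against 0, 2, and 0. Fcna, the ficolin A gene of macrophages, had 1.62, 1.58, and 1.51 FPKM against 0.787, 1.0105, and 1.28 FPKM, which did not overlap and did not pass (log2 fold change 0.35, adjusted p = 0.112). Colec12, a collectin that serves as a membrane scavenger receptor, was the exception at 9.60, 18.1, and 6.52 FPKM against 0.0163, 0.301, and 0.0961 FPKM (log2 fold change 3.34 ± 0.33 SE, adjusted p = 0.000588). Its WT values rest on 3, 47, and 16 fragments.

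Of the terminal components, C7 was called higher. C6 and C7 encode the first proteins to join the nascent pore, and C8g encodes the gamma chain of C8. C7 had 121, 193, and 123 fragments in Gm31629-/- mice, or 2.45, 3.90, and 2.51 FPKM, and 0, 0, and 6 fragments in WT mice (log2 fold change 1.91 ± 0.19 SE, adjusted p = 0.000578). C6, its neighbour on chromosome 15, had 0.633, 1.69, and 0.796 FPKM against 0.0536, 0.0550, and 0.0659 FPKM. The ratio of means for C6 was 17.9, and its adjusted p was 0.0128, but the log2 fold change was 0.91 with the pseudocount of 1 and so C6 was not called. With a pseudocount of 0.1 it was 2.74 and C6 was called. C8g had 1.86, 1.45, and 1.35 FPKM against 1.19, 1.56, and 2.21 FPKM, and the groups overlapped. Its log2 fold change was −0.04 ± 0.19 (SE, adjusted p = 0.867), or 0.35 after scaling to epithelial markers (adjusted p = 0.194). The remaining pore genes, named after their values were seen, were at the floor: Hc (the gene of C5), C9, C8a, and C8b each had a mean under 0.1 FPKM in both groups.

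The receptors C5ar1 and C3ar1 rose. C5ar1, the receptor on myeloid cells for the C5 fragment, had 4.97, 17.7, and 8.18 FPKM in Gm31629-/- mice and 0.547, 0.951, and 0.745 FPKM in WT mice (log2 fold change 2.53 ± 0.39 SE, adjusted p = 0.00273). C3ar1, its counterpart for the C3 fragment, had 2.76, 5.59, and 2.74 FPKM against 0.364, 0.400, and 0.161 FPKM (log2 fold change 1.80 ± 0.25 SE, adjusted p = 0.00195). The groups did not overlap for either gene. C5ar2, which lies next to C5ar1 and encodes another receptor, was under the filter with 32, 68, and 49 fragments against 6, 7, and 3. Vsig4, a receptor for C3 fragments on resident macrophages, had 8, 1, and 4 fragments against 0 in each WT mouse, too few for a fold.

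The regulators split into genes that rose and a gene that did not pass. Cd59a (chr2:104095801-104115354, plus strand, GRCm38) encodes a blocker of the terminal pore on host cells and had 22.6, 28.5, and 13.2 FPKM in Gm31629-/- mice and 0.119, 0.552, and 0.352 FPKM in WT mice (log2 fold change 4.01 ± 0.29 SE, adjusted p = 0.000242). This was the smallest adjusted p of the 21 tested genes, although the WT values rest on 4, 18, and 12 fragments. Cd59a passed the filter only through its Gm31629-/- values, so being tested already went with a difference. Its copy Cd59b, in the adjoining stretch of chromosome 2, had 4, 13, and 10 fragments against 0, 1, and 2. Cd55, which speeds the decay of C3 convertases, had 15.2, 39.4, and 28.7 FPKM against 7.63, 10.5, and 5.32 FPKM, without overlap (log2 fold change 1.65 ± 0.37 SE, adjusted p = 0.0108). Its change was the smallest of the 15 called genes. Cr1l encodes Crry, the widely expressed rodent membrane regulator of C3. Cr1l had 8.39, 7.43, and 7.45 FPKM against 8.98, 8.87, and 8.12 FPKM, with overlap between groups (log2 fold change −0.14 ± 0.14 SE, adjusted p = 0.427). After scaling to epithelial markers the log2 fold change of Cr1l was 0.44 (adjusted p = 0.0468), where the median over all genes was 0.66.

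The promoter of Cd59a is shown for its smallest adjusted p, with the window chr2:104095551-104095800, plus strand; capitals mark the IRF letters.
Cd59a: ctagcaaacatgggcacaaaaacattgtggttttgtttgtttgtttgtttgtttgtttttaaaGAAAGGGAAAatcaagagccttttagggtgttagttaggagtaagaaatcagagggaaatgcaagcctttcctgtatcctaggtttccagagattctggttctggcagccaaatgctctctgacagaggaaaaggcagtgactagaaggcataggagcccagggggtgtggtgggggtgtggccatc

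Cd46 and Cfi were low. Cd46, which in mice is known mainly from testis, had 89, 33, and 32 fragments in Gm31629-/- mice and 6, 11, and 4 in WT mice, without overlap and under the filter, and 14.2% of its exon bases lie in a listed gene on the opposite strand. Cfi, the protease that cleaves C3b with cofactors and is made mainly by liver, had 7, 5, and 1 fragments against 0, 3, and 6. In WT mice the 5 membrane regulators Cd46, Cd55, Cd59a, Cd59b, and Cr1l together made up 25.4%, 28.3%, and 14.6% of the summed FPKM of the 31 genes. In Gm31629-/- mice they made up 5.85%, 4.67%, and 7.86%. Each Gm31629-/- share was below each WT share.

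**Figure D2:**
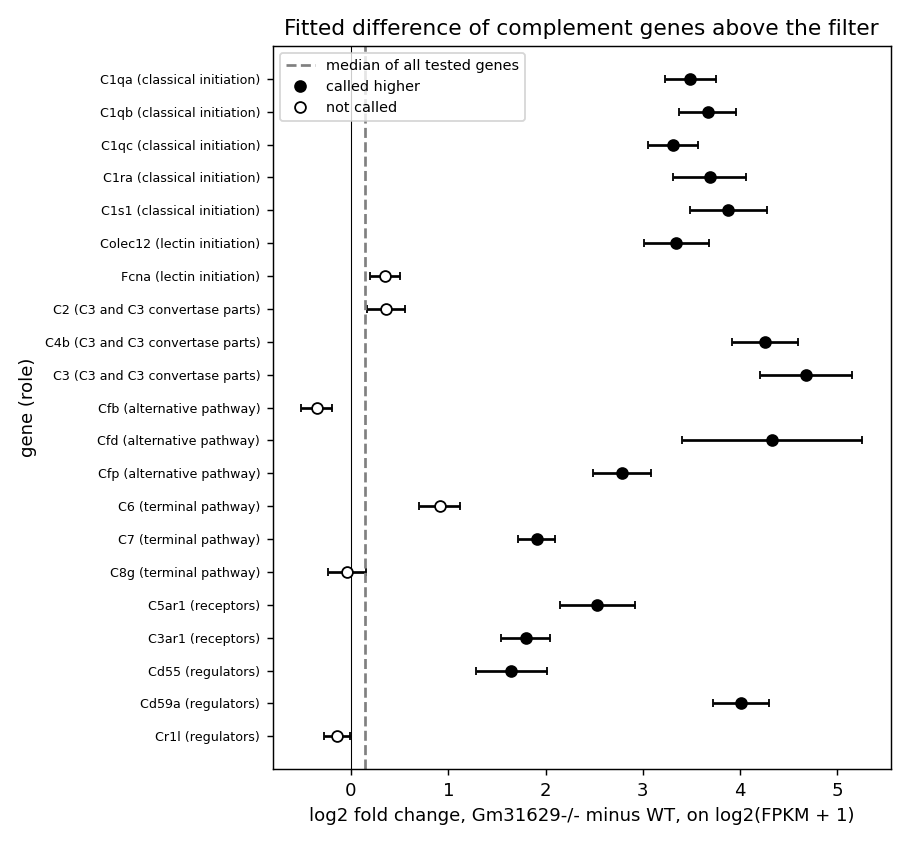
Log2 fold change (Gm31629-/- minus WT, on log2(FPKM + 1)) of the 21 complement genes above the filter, with bars of 1 standard error from limma. Filled points are the 15 genes called higher, open points the 6 not called, and the dashed line is the median of all tested genes at 0.15. Cfb, C8g, and Cr1l sit at or below 0.

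By role, the ratio of the group means of summed FPKM was 31.1-fold for C3 and its convertase parts, against 14.3-fold for the C1 genes, 13.4-fold for the alternative pathway, 13.1-fold for the receptors, and 11.4-fold for the lectin genes. It was 3.40-fold for the regulators and 3.16-fold for the terminal genes. Without WT mouse 3, in which Cfd was high, the alternative pathway came to 5.35 on the log2 scale in place of 3.74. These sums are descriptions and were given no test, and the gene that leads a sum can differ between groups. The lectin sum was mostly Colec12 in Gm31629-/- mice and mostly Fcna in WT mice, and Cr1l was the highest regulator in the WT mean and Cd55 in the Gm31629-/- mean. Within the Gm31629-/- group mouse 2 had the highest value for 15 of the 15 called genes and for 23 of the 31.

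Genes of other parts of the system were compared through a list of 28 companion complement genes outside the 31, of which 27 were found and 13 passed the filter. Of the 28, 10 were called higher and 2 lower. Serping1, the inhibitor of C1r and C1s, had 102, 227, and 119 FPKM in Gm31629-/- mice and 11.4, 8.24, and 7.35 FPKM in WT mice (log2 fold change 3.84, adjusted p = 0.000327). Clu, a fluid-phase inhibitor of the terminal pore, had 76.6, 74.1, and 87.5 FPKM against 4.18, 5.03, and 5.73 FPKM (log2 fold change 3.75, adjusted p = 7.73e-05). Unlike the 15 called genes, Clu was not highest in Gm31629-/- mouse 2.

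The 2 lower genes were Cpn1 and C1qbp. Cpn1 encodes the catalytic chain of carboxypeptidase N, which inactivates the fragments that C5ar1 and C3ar1 bind. It had 0.177, 0.514, and 0.266 FPKM in Gm31629-/- mice and 5.73, 5.86, and 6.22 FPKM in WT mice (log2 fold change −2.40 ± 0.16 SE, adjusted p = 0.000218). It passed the filter only through its WT values. C1qbp encodes a mostly mitochondrial protein first found by its binding to C1q. It had 11.7, 14.4, and 9.11 FPKM against 32.1, 18.3, and 35.0 FPKM (log2 fold change −1.18, adjusted p = 0.0131), and it was not called without WT mouse 1 or without WT mouse 3, nor after scaling to epithelial markers.

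C1q binds antibody, so the antibody constant genes and pentraxins were listed too. Of 8 such genes 6 were found and tested, and 4 were called higher. Ighg2c had 152, 15.8, and 22.5 FPKM in Gm31629-/- mice and 0.0815, 0.0419, and 0.120 FPKM in WT mice (log2 fold change 5.18, adjusted p = 0.00218). Ighg2b had 105, 18.9, and 32.1 FPKM against 0.484, 0.228, and 0.378 FPKM (log2 fold change 4.92, adjusted p = 0.00086). Ighm, the IgM constant gene, had 40.2, 16.2, and 38.0 FPKM against 3.84, 3.00, and 4.26 FPKM (log2 fold change 2.69, adjusted p = 0.00132). Ighg2c and Ighg2b passed the filter only through their Gm31629-/- values, and so being tested already went with a difference. Reads of these similar genes could be split among them. Mouse 1 was the highest Gm31629-/- mouse for 5 of the 6 genes, whereas mouse 2 was highest for the C1 genes.

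Complement genes that lie side by side in the genome did not always differ alike. With neighbours taken as genes within 500 kb, the genes of the 31 and of the list of 28 fell into 12 clusters holding 33 genes. In the C1q cluster the 3 genes were called higher. On chromosome 6, C1rl, C1ra, and C1s1 were called higher, while C1rb and C1s2 stayed at 6 fragments or fewer. On chromosome 1, Cd55 and C4bp were called higher, and Cd55b had a mean under 0.05 FPKM in both groups. Farther along the same chromosome, Cr1l did not pass and its neighbours Cd46 and Cr2 were under the filter. Cd59a and Cd59b lie within 45.5 kb, with mean Gm31629-/- levels of 21.4 and 0.376 FPKM.

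**Figure D3:**
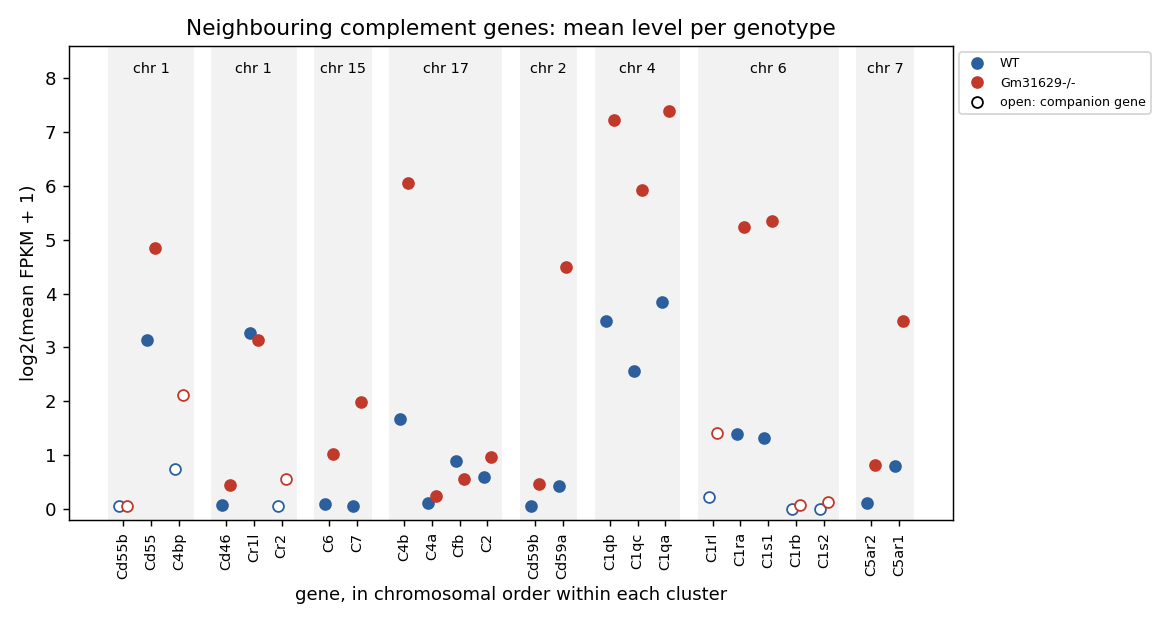
Mean level per genotype, as log2(mean FPKM + 1), for complement genes in 8 chromosomal clusters, in their order along the chromosome (blue WT, red Gm31629-/-, open symbols for genes outside the 31). The 3 C1q genes stand high together, whereas C4b, Cd59a, and C1ra with C1s1 stand above lower neighbours.

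Markers of several cell types were also higher in Gm31629-/- mice, and their part in the result was not tested. Which Gm31629-/- mouse was highest differed between lists. Mouse 2, highest for each called complement gene, was highest for 10 of 12 macrophage, 8 of 10 fibroblast, and 7 of 8 endothelial markers. It was also highest for 8 of 8 adipocyte, 7 of 8 neuron and glia, and 6 of 6 mesothelial markers. Mouse 1 was highest for 8 of 8 smooth muscle and 5 of 8 neutrophil markers, and mouse 3 for 8 of 8 B and plasma cell markers. Of 12 macrophage markers 9 were called higher, with a summed FPKM of 348 to 917 in Gm31629-/- mice and 87.3 to 95.4 in WT mice, whereas Cd14 and Mertk were not called. Of 10 fibroblast markers 10 were called higher (228 to 636 against 22.0 to 41.5 FPKM). The same held for 8 of 8 neutrophil markers (522 to 1036 against 70.9 to 129 FPKM), 8 of 8 endothelial markers (53.4 to 93.4 against 2.38 to 6.46 FPKM), and 8 of 8 B and plasma cell markers (234 to 429 against 15.3 to 22.0 FPKM). Of 8 smooth muscle markers 7 were called higher (1127 to 1722 against 9.19 to 26.4 FPKM), of 8 neuron and glia markers 6 (25.2 to 75.9 against 4.26 to 5.82 FPKM), and of 6 mesothelial markers 3 (3.76 to 44.9 against 2.51 to 3.00 FPKM). In WT mice the neuronal gene Elavl4 and the mesothelial genes Wt1 and Gpm6a were at 0. Of 15 epithelial markers 4 were called lower (8239 to 9747 against 13160 to 14367 FPKM). Of 8 hepatocyte markers 0 were called by limma (4.93 to 20.2 against 4.39 to 5.52 FPKM). At an unadjusted p under 0.05, limma gave 0 higher and 1 lower. The lower gene, Cps1, also passed the adjusted p (0.00197 by limma) and missed the call at a log2 fold change of −0.96. Albumin (Alb) was at most 0.12 FPKM in any library.

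**Figure D4:**
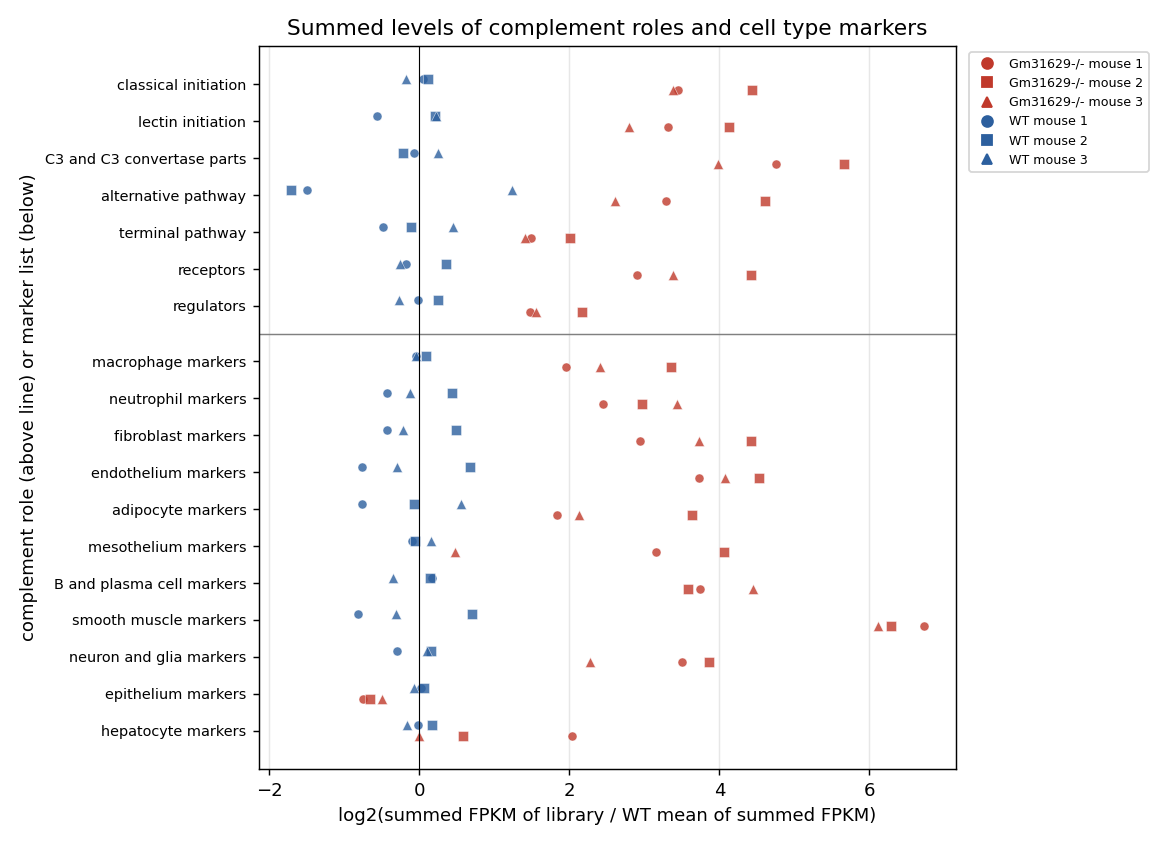
Summed FPKM of each complement role (above the line) and of each marker list (below it) in each library, as the log2 ratio to the WT mean of the same sum. Gm31629-/- mice (red) lie above WT mice (blue) for each of the 7 roles and for 9 of the 11 marker lists, with the epithelial list lower and the hepatocyte list overlapping.

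How complement genes compared with cell type markers depended on the marker. These ratios were chosen after the values were seen and were given no test. The FPKM of C1qa per FPKM of Csf1r, the macrophage growth factor receptor, was 9.84, 5.04, and 6.88 in Gm31629-/- mice and 6.91, 6.75, and 7.37 in WT mice. C5ar1 per Csf1r was 0.365, 0.367, and 0.455 against 0.287, 0.445, and 0.447. C3ar1 per Csf1r was 0.203, 0.116, and 0.153 against 0.191, 0.187, and 0.0964, and Cfp per Csf1r was 0.841, 0.573, and 0.767 against 0.785, 0.703, and 0.938. The groups overlapped in each of these ratios to Csf1r. With the other markers of the list it was otherwise for some: over the 11 macrophage markers above 0 in every library, C1qa per marker overlapped between groups for 6, was higher in each Gm31629-/- mouse for 4, and was lower for 1. C1qa per Cd68 was 8.68, 5.28, and 4.94 against 4.19, 2.51, and 3.22, and C1qa per Cd14 was 3.21, 1.63, and 2.16 against 0.274, 0.390, and 0.295. Per FPKM of Dcn, the decorin gene of fibroblasts, C1s1 was 0.372, 0.589, and 0.432 against 0.655, 0.267, and 0.367, and C3 was 3.19, 2.75, and 1.10 against 2.43, 0.595, and 2.41. Cd59a per Dcn stood apart, at 0.386, 0.249, and 0.193 against 0.0566, 0.0727, and 0.121. Over the 9 fibroblast markers above 0 in every library, the ratio to the marker was higher in each Gm31629-/- mouse for 7 with Cd59a, 4 with C1s1, and 2 with C3, and lower for 0, 1, and 0. Cfd per Adipoq was 37.3, 9.82, and 6.75 against 7.90, 4.21, and 11.5, and over 7 adipocyte markers the ratio of Cfd to the marker overlapped between groups for 6.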

How the data were processed

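RNA-Seq libraries (TruSeq, total RNA) of distal colon were made from 6 mice, and the authors deposited FPKM values, normalised by gene length and library depth, for 27546 genes. The submitters' processing notes name HISAT2 2.1.0, HTSeq 0.6.0, and GRCm38, with no roles. The counting mode, strand setting, and gene lengths are not given in the sources used here. Symbols and exon lengths came from GENCODE M21 (GRCm38), which matched 27488 genes. With these lengths 96.3% to 97.3% of the values of 20 fragments or fewer were whole to within 0.1, which gave the depth and the fragments behind each value. Limits from fragments cover counting error only.

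The limma package (3.58.1; R 4.3.3) fitted each gene on log2(FPKM + 1) and moderated variances with a mean trend, with Benjamini-Hochberg adjustment over the 14657 tested genes. The study used DEGseq, which was not repeated. The script was tested on simulated data. Libraries within a group differed beyond sampling noise (a chi-square of at least 34.1 per gene), so none was a second sequencing of another. This measure cannot tell libraries of separate mice from separate libraries made of pooled RNA. The genes named are the 31, the called genes of the companion and antibody lists with the 6 largest changes, and those needed for small counts. Some genes that this rule names are not reported here. The members and lists were chosen with earlier results of these data known. Marker lists covered macrophage, neutrophil, fibroblast, smooth muscle, adipocyte, epithelium, B and plasma cell, endothelium, neuron and glia, mesothelium, and hepatocyte. Figures were drawn with matplotlib 3.10.9. Alternatives were another pseudocount, other filters, 3 rescalings, voom on recovered fragments, no trend, a replicate block, adjusted p alone, and leaving out each mouse.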

Additional observations from a re-analysis of the deposited data

How the results depend on the processing

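Each of the 15 called complement genes stayed called in each of the 16 other settings in which it was tested, and none of the 31 was called lower in any. The median log2 fold change of the tested genes among the 31 was 2.79. It was 3.53 with a pseudocount of 0.1, 0.91 with no filter (31 genes), 3.58 with a mean of at least 5 FPKM (14 genes), and 3.60 with voom on recovered fragments. C6 was called in addition with a pseudocount of 0.1, with epithelial scaling, with voom, and without Gm31629-/- mouse 1. The fold change of C8g turned to 0.35 and that of Cr1l to 0.44 with epithelial scaling, which moved the median of all genes to 0.66. With 1 mouse left out, C8g ranged from −0.17 to 0.10 and was 0.01 without Gm31629-/- mouse 3. Among the companion genes, 3 were called higher and 1 lower with a mean of at least 5 FPKM, where fewer genes were tested, and 1 was called lower with epithelial scaling. With 1 mouse left out 1 to 2 were called lower. On the log2 scale, the ratios of summed FPKM with epithelial scaling were 4.53 for the C1 genes, 4.20 for lectin genes, 5.64 for C3 and its convertase, 2.32 for terminal genes, 4.41 for receptors, and 2.45 for regulators. The alternative pathway ranged from 2.99 to 5.35 with 1 mouse left out. Cfd had an adjusted p of up to 0.0388 and Cd55 of up to 0.0468 with 1 mouse left out. Of the 10 genes under the filter, 6 had at most 3 fragments in every WT library, and apart from the lower limit given for Masp1 their fold changes were not resolved at this depth.

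Mice of the 2 genotypes share only replicate numbers. Deviations of same-numbered mice correlated at 0.0358, −0.108, and 0.0141, so the numbers were not treated as pairs. With a replicate block 15 complement genes were called higher and 0 lower, and 10 and 2 companion genes.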
